A study of Mus musculus with 6 samples.

Results

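The genes described here are the mouse ubiquitin-specific protease (Usp) genes, measured as transcripts in purified male germ cells. They were chosen by symbol: every array cluster annotated to a single gene whose symbol is Usp followed by a number and any letters was taken, Usp9y left out. Each gene was represented by its cluster of highest mean, and a gene was kept if any of the 6 arrays reached log2 6. This left 52 of 53 Usp genes, among 17925 genes tested in all. The gene that did not reach the threshold was Usp17la, whose highest value was log2 5.14, and the lowest kept was Usp13, whose highest value was 6.43. Usp6nl enters by its symbol but is known to encode a GTPase-activating protein for Rab proteins and not a protease.

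The study placed RNA of 6 samples on Affymetrix MoGene 1.0 ST arrays. The Rnf8 knockout (KO) groups were 1 array of round spermatids and 2 arrays of pachytene spermatocytes, and the wild-type (WT) groups were likewise 1 and 2 arrays, all on the C57BL/6 background. Each preparation pooled cells of 3 to 4 males, separated by gravity through BSA, with a purity above 95% stated from nuclear staining. The labels used here name neither the age of the males nor the Rnf8 allele. They do not say whether arrays sharing a group hold separate preparations, so p-values cover the spread between these arrays, which may be technical.

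Ubiquitin-specific proteases are the largest family of deubiquitinases. They are cysteine proteases that cut ubiquitin off substrate proteins or take ubiquitin chains apart, and so oppose ubiquitin ligases such as RNF8. RNF8 is a ligase that ubiquitinates chromatin at DNA breaks and on the silenced X and Y chromosomes of pachytene spermatocytes, and several Usp proteins remove ubiquitin from the same histones. After meiosis, spermatids build the acrosome, remodel their chromatin and later discard much of their cytoplasm, all processes in which ubiquitin takes part.

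The labelled cell types were checked against marker genes. Of 12 pachytene markers, 10 were lower and 0 higher in round spermatids, and of 12 round spermatid markers 10 were higher and 0 lower. Markers of somatic cells also moved with cell type: 7 of 8 Leydig and 9 of 13 Sertoli markers were lower in round spermatids, and none of either list was higher. The mean log2 intensity of the Leydig list lay between 7.35 and 7.49 on the round spermatid arrays and between 8.78 and 9.17 on the pachytene arrays, and that of the Sertoli list between 8.21 and 8.49 on the round spermatid arrays and between 8.90 and 9.16 on the pachytene arrays. Of 12 spermatogonial markers 1 was higher, as were 3 of 9 macrophage and blood and 3 of 12 peritubular and vessel markers, and none of these was lower. The part of these cells in the results for the Usp genes was not tested. The cluster that holds Rnf8 also lists Gm28043, and stood at 7.50 in KO against 7.78 in WT round spermatids, and at 7.86 and 8.05 in KO against 8.51 and 8.86 in WT pachytene spermatocytes.

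Averaged over the 6 arrays, the Usp genes ran from log2 6.22 for Usp29 to 12.96 for Usp1, with a median of 9.56 beside 8.38 over all tested genes. The genes with a mean above 12 were Usp1, Usp2, Usp8, Usp42, Usp50 and Usp7. Usp13, Usp17lb, Usp18, Usp27x, Usp29 and Usp35 lay under the lower quartile of the tested genes on every array, so their values are dim. Levels of different genes come from different probes, so this order is a description of the array signal only.

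Between the cell types, 12 Usp genes rose and 9 fell in round spermatids relative to pachytene spermatocytes. X-linked Usp9x, Usp51, Usp26 and Usp11 and autosomal Usp12 and Usp25 rose more than 2-fold, and Usp10, Usp40 and Usp5 fell more than 2-fold. The test was limma across all genes with genotype and cell type as terms, 2 round spermatid against 4 pachytene arrays, at a Benjamini-Hochberg adjusted p of 0.05. The 21 genes that passed are 40.4% of the 52, beside 34.9% of all tested genes, so the share is close to the background. By direction, 17.8% of all tested genes passed as higher and 17.1% as lower. The median difference of the Usp genes was -0.02, against -0.06 over all tested genes. In these bulk samples, fewer cells of a type and less RNA per cell cannot be told apart.

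**Figure D1:**
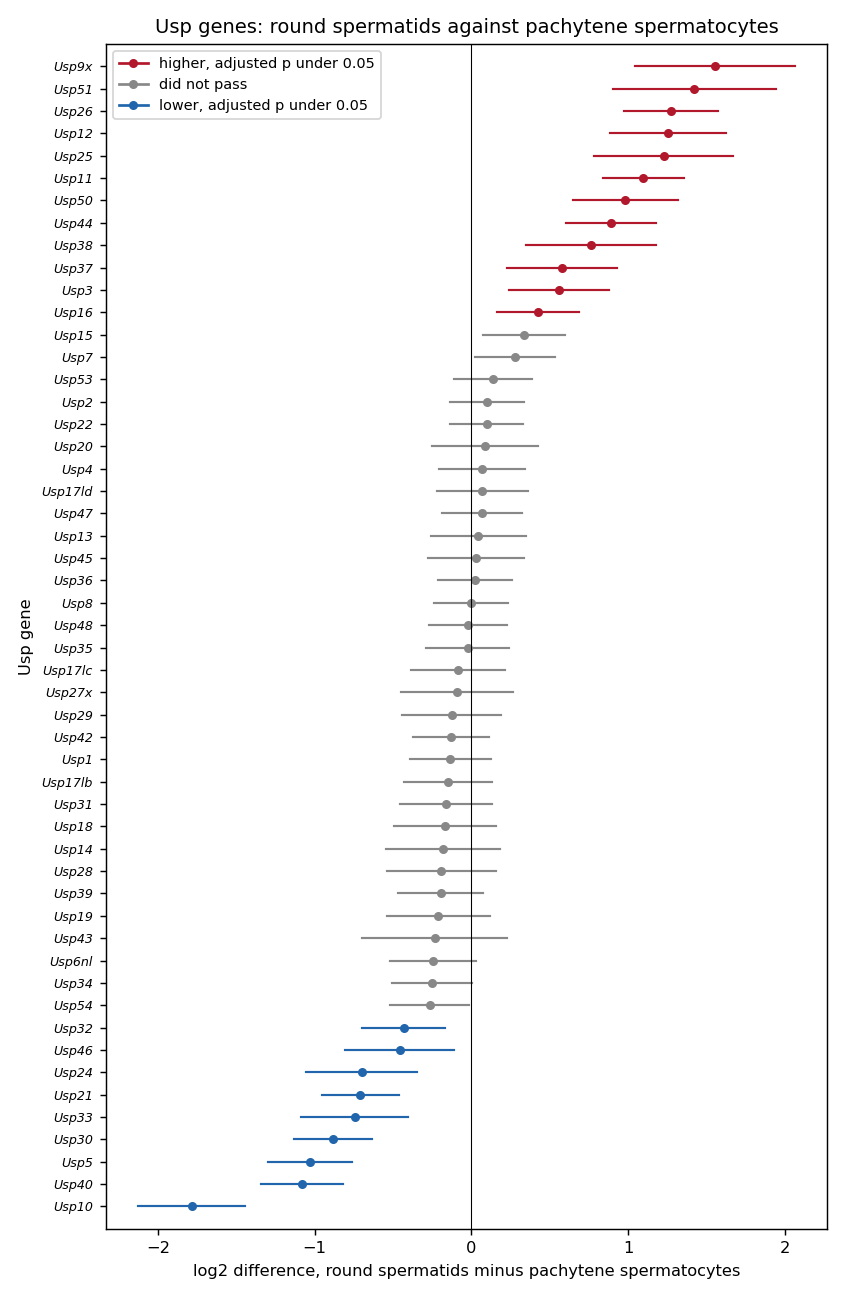
Log2 difference between round spermatids and pachytene spermatocytes for each of the 52 Usp genes, with 95% confidence intervals from the limma fit (2 against 4 arrays); red genes passed as higher, blue as lower and grey did not pass. The differences run from 1.55 for Usp9x to -1.79 for Usp10.

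Of the 5 X-linked Usp genes, 4 rose (of all X-linked genes 42.5% passed, 40.2% as higher and 2.24% as lower). Usp9x encodes a large deubiquitinase with many substrates, and it stood at log2 10.38 on the KO and 10.27 on the WT round spermatid array, against 9.28 and 8.58 on the KO and 8.86 and 8.35 on the WT pachytene arrays. Both round spermatid values lay above every pachytene value, and the rise was 1.55 (SE 0.22, limma adjusted p = 0.00111), or 2.94-fold. Usp51, whose product removes ubiquitin from histone H2A, stood at 7.99 in KO and 8.40 in WT round spermatids, against 7.09 and 6.19 in KO and 6.91 and 6.90 in WT pachytene spermatocytes. It rose by 1.42 (SE 0.22, adjusted p = 0.00184), and the lowest of its pachytene values, on KO array 2, lay well under the other 3.

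Usp26 is a testis-expressed gene whose product deubiquitinates the androgen receptor. It reached 9.04 in KO and 8.65 in WT round spermatids, against 7.89 and 7.63 in KO and 7.24 and 7.51 in WT pachytene spermatocytes, a rise of 1.28 (SE 0.13, adjusted p = 3.08e-04). In each cell type the KO arrays lay above the WT arrays. Usp11, which acts in DNA repair with BRCA2, had tight pachytene values, 7.37 and 7.38 in KO and 7.32 and 7.36 in WT, below 8.33 in KO and 8.58 in WT round spermatids, and rose by 1.097 (SE 0.11, adjusted p = 3.15e-04). The fifth X-linked gene, Usp27x, a paralogue of Usp22, was dim: 6.97 in KO and 6.90 in WT round spermatids, against 6.79 and 7.32 in KO and 6.95 and 7.04 in WT pachytene spermatocytes. Its groups overlapped, and its difference of -0.09 had a 95% interval from -0.45 to 0.27. Among the 47 autosomal Usp genes, 8 rose and 9 fell, beside 34.6% of all autosomal genes that passed, 17% as higher and 17.7% as lower.

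The autosomal genes that rose most were Usp12 and Usp25. Usp12 works with the WD-repeat protein WDR48, and stood at 9.81 in KO and 10.34 in WT round spermatids, against 8.95 and 8.58 in KO and 8.75 and 8.99 in WT pachytene spermatocytes. The groups were well apart, with a rise of 1.26 (SE 0.16, adjusted p = 6.97e-04). Usp25, which takes part in immune signalling and protein quality control, stood at 11.74 in KO and 11.90 in WT round spermatids, against 10.92 and 10.24 in KO and 10.75 and 10.47 in WT pachytene spermatocytes, and rose by 1.23 (SE 0.19, adjusted p = 0.00172). Its pachytene values were spread over 0.68, the distance between the KO arrays.

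The windows around the transcription start are shown for some of the Usp genes with the largest differences between the cell types, so that their sequence can be read beside their values. They are from RefSeq (GRCm38.p6), 250 bases before to 50 after the start, 5′ to 3′ on the gene's strand. Capitals mark TGACG on either strand, the core letters of the cAMP response element that CREM, a transcription factor of spermatids, is known to bind. Shown are 5 genes that rose, 3 of them X-linked, and Usp10, which fell:
Usp26 (chrX:51801184-51801483, minus strand): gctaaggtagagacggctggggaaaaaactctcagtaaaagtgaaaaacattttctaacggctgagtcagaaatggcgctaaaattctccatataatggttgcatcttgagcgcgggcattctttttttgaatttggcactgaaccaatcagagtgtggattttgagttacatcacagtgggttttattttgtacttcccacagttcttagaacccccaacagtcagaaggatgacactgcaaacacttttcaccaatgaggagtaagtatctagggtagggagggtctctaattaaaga
Usp51 (chrX:153006219-153006518, plus strand): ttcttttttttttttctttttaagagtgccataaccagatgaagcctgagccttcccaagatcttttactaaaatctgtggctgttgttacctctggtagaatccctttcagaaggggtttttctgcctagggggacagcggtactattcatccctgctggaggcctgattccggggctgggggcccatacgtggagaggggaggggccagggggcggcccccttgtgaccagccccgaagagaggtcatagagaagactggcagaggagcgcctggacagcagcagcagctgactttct
Usp11 (chrX:20703659-20703958, plus strand): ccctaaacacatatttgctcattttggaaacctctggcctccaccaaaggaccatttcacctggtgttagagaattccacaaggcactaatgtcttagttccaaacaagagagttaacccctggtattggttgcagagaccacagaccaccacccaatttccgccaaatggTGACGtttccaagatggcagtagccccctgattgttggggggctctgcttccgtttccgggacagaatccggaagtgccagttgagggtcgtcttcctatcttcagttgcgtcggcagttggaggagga
Usp25 (chr16:77013819-77014118, plus strand): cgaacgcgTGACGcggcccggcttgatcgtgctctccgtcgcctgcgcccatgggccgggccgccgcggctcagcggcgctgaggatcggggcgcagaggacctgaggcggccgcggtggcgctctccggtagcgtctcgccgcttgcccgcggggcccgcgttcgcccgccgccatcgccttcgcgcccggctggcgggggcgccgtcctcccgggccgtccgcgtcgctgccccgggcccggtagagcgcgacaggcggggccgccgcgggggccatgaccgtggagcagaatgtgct
Usp50 (chr2:126783411-126783710, minus strand): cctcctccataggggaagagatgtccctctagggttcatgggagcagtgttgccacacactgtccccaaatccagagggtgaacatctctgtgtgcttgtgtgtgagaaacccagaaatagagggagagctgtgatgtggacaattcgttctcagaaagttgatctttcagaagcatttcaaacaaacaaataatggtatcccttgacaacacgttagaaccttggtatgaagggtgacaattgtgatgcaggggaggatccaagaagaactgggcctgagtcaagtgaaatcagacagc
Usp10 (chr8:119910110-119910409, plus strand): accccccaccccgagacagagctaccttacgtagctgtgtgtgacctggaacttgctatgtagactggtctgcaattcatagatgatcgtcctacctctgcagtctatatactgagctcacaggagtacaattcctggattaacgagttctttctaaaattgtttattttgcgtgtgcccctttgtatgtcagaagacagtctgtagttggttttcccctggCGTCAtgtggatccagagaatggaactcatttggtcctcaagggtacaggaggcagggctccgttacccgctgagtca
These letters stood 1 time each in the windows of Usp11, Usp25 and Usp10 and 0 times in those of Usp26, Usp51 and Usp50. The table held windows for 40 of the 52 genes. The letters were present for 5 of 10 genes that rose, 1 of 7 that fell and in 8 of 24 windows of genes that did not pass, and in 20.8% of all 32851 windows. CpG dinucleotides ranged widely among the genes that rose, with 5 for Usp26, 6 for Usp51, 8 for Usp11 and 2 for Usp50, but 54 for Usp25. Of the other genes that rose and had a window, Usp16 had 17, Usp3 22, Usp38 27, Usp37 31 and Usp12 37. The median number of CpG dinucleotides was 19.5 among windows of genes that rose and 25 among those of genes that fell. It was 31.5 among windows of Usp genes that did not pass and 7 over all windows. The marked letters hold a CpG themselves. A match is a description of these letters and not a binding site.

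Among the 10 histone H2A and H2B deubiquitinases that had a single-gene cluster, 5 rose, 2 fell and 3 did not pass, beside 17.8% of all tested genes that passed as higher and 17.1% as lower. Usp51 and Usp12 are given above. Usp44, whose product removes ubiquitin from H2B and acts on the mitotic checkpoint, stood at 11.99 in KO and 12.21 in WT round spermatids, against 11.35 and 11.15 in KO and 11.23 and 11.12 in WT pachytene spermatocytes, and rose by 0.89 (SE 0.12, adjusted p = 0.00101). The groups did not overlap. Usp3 and Usp16, which encode H2A deubiquitinases that counter ubiquitin signalling at DNA breaks, rose less. Usp3 stood at 9.63 in KO and 9.84 in WT round spermatids, against 9.40 and 9.05 in KO and 9.10 and 9.16 in WT pachytene spermatocytes, a rise of 0.56 (SE 0.14, adjusted p = 0.0149). Usp16 stood at 11.60 in KO and 11.67 in WT round spermatids, against 11.24 and 11.09 in KO and 11.16 and 11.35 in WT pachytene spermatocytes, a rise of 0.42 (SE 0.11, adjusted p = 0.0206). For both, the groups did not overlap but lay close together. Usp3 no longer passed without either WT pachytene array or either round spermatid array, nor did Usp16 without WT pachytene array 1 or either round spermatid array, or with the replicate number as a block (highest adjusted p = 0.280 and 0.201).

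The 2 members of the histone group that fell were Usp21 and Usp46. Usp21, an H2A deubiquitinase, stood at 11.19 in KO and 10.94 in WT round spermatids, against 11.79 and 11.83 in KO and 11.69 and 11.77 in WT pachytene spermatocytes. It fell by 0.71 (SE 0.11, adjusted p = 0.00140), to adjusted p = 0.0562 without the WT round spermatid array. Usp46, which shares the partner WDR48 with Usp12, stood at 9.14 in KO and 9.28 in WT round spermatids, against 9.84 and 9.94 in KO and 9.53 and 9.36 in WT pachytene spermatocytes. Its fall of 0.46 (SE 0.15, adjusted p = 0.0484) lost the threshold under 10 of 14 alternatives, among them leaving out any pachytene array or the KO round spermatid array, with differences from -0.75 to -0.17, and the WT pachytene values lay closer to the round spermatid values than the KO ones did. Usp22, the deubiquitinase of the SAGA coactivator, stood at 8.39 in KO and 8.18 in WT round spermatids, against 8.31 and 8.28 in KO and 8.10 and 8.06 in WT pachytene spermatocytes. Its groups overlapped (difference 0.10, 95% interval -0.13 to 0.33), and so did those of Usp48, an H2A deubiquitinase: 9.44 in KO and 9.62 in WT round spermatids, against 9.43 and 9.54 in KO and 9.67 and 9.53 in WT pachytene spermatocytes (difference -0.02, interval -0.27 to 0.23).

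Of the SAGA subunits that work with Usp22, and their relatives, some passed and some did not. Eny2 fell by 0.99, Atxn7l3 by 0.73 and Atxn7 by 0.36 (adjusted p = 0.00244, 0.00240 and 0.0441). Atxn7l1 and Atxn7l2 were at 0.20 and -0.14 and did not pass (adjusted p = 0.216 and 0.413). Whether any of them differs from Usp22 was not tested. Of 17 tested genes for partners of Usp proteins, 6 fell and 1 rose, or 41.2% beside 34.9% of all tested genes. The largest difference was -1.14 for G3bp1 (adjusted p = 3.59e-04), whose protein binds USP10 in stress granules, and the only rise was 0.71 for Stam (adjusted p = 0.00543), whose protein binds USP8 on endosomes.

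**Figure D2:**
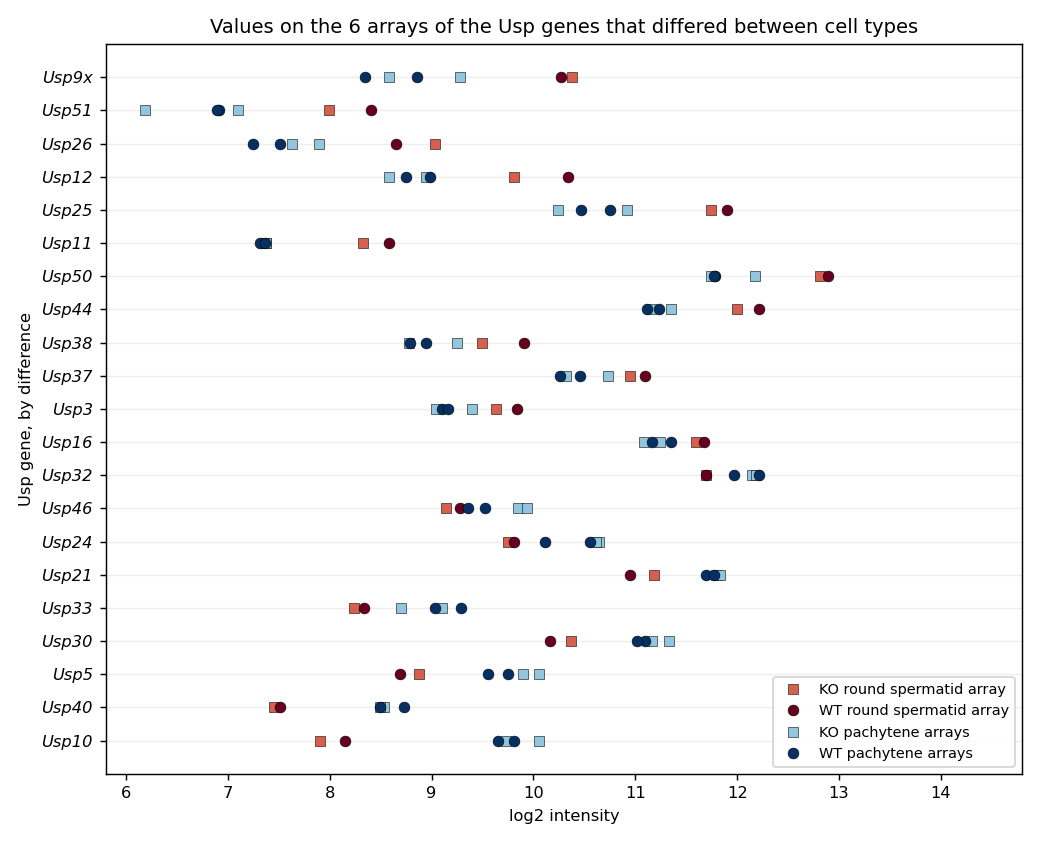
Log2 intensity on each of the 6 arrays for the 21 Usp genes that passed between the cell types, ordered by their difference; squares are KO and circles WT, red round spermatids and blue pachytene spermatocytes. In all 21 genes both round spermatid values lie to the same side of all 4 pachytene values.

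Among the 9 genes of DNA repair and checkpoints, Usp26, Usp11 and Usp37 rose and 0 fell (33.3% passed, beside 34.9% of all tested genes). Usp37, which stabilises cyclin A at the start of DNA replication, stood at 10.95 in KO and 11.09 in WT round spermatids, against 10.73 and 10.32 in KO and 10.45 and 10.26 in WT pachytene spermatocytes. The rise of 0.58 (SE 0.15, adjusted p = 0.0189) did not pass without WT pachytene array 2 or either round spermatid array (highest adjusted p = 0.306), and KO pachytene array 1 lay closest to the round spermatids. Usp1, which removes ubiquitin from FANCD2 and PCNA, was near 13 on every array: 12.82 in KO and 12.92 in WT round spermatids, against 13.06 and 12.88 in KO and 12.97 and 13.10 in WT pachytene spermatocytes. Its groups overlapped, with a difference of -0.13 (95% interval -0.39 to 0.12).

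Usp7, which deubiquitinates MDM2 and p53, stood at 12.17 in KO and 12.23 in WT round spermatids, against 11.996 and 11.82 in KO and 11.88 and 11.98 in WT pachytene spermatocytes. The arrays did not overlap, but the difference of 0.28 (SE 0.11) did not pass (adjusted p = 0.0878). Usp28, a partner of the repair factor 53BP1, stood at 9.20 in KO and 9.33 in WT round spermatids, against 9.72 and 9.34 in KO and 9.50 and 9.25 in WT pachytene spermatocytes, and overlapped. Usp47, which acts on DNA polymerase beta, stood at 11.83 in KO and 11.80 in WT round spermatids, against 11.76 and 11.77 in KO and 11.84 and 11.61 in WT pachytene spermatocytes, a difference of 0.07. Usp45, which acts with ERCC1, stood at 9.95 in KO and 9.91 in WT round spermatids, against 10.03 and 9.75 in KO and 9.78 and 10.04 in WT pachytene spermatocytes, a difference of 0.03. Both overlapped. Usp29, a dim imprinted gene, stood at 6.16 in KO and 6.10 in WT round spermatids, against 6.16 and 6.57 in KO and 6.13 and 6.18 in WT pachytene spermatocytes, a difference of -0.13 in which KO pachytene array 2 was the highest value.

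The deepest fall of the family was that of Usp10, which deubiquitinates p53 and rescues stalled ribosomal subunits. It stood at 7.90 in KO and 8.15 in WT round spermatids, against 10.05 and 9.73 in KO and 9.65 and 9.81 in WT pachytene spermatocytes. The groups were far apart, and the gene fell by 1.79 (SE 0.15, adjusted p = 1.84e-04), a 3.45-fold difference (95% interval of the log2 difference -2.12 to -1.45). The splicing factor gene Usp39, whose product lacks protease activity, overlapped at -0.20 (95% interval -0.47 to 0.07), with 11.59 in KO and 11.42 in WT round spermatids, against 11.77 and 11.81 in KO and 11.48 and 11.75 in WT pachytene spermatocytes. The nucleolar Usp36 was level at 7.93 in KO and 7.90 in WT round spermatids, against 7.996 and 7.94 in KO and 7.81 and 7.83 in WT pachytene spermatocytes, a difference of 0.02.

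Usp5, which takes apart free ubiquitin chains, fell by 1.03 (SE 0.12, adjusted p = 4.38e-04). It stood at 8.88 in KO and 8.69 in WT round spermatids, against 10.05 and 9.90 in KO and 9.75 and 9.55 in WT pachytene spermatocytes, and in each cell type the KO arrays were the higher ones. Usp14, the deubiquitinase that sits on the proteasome, stood at 10.10 in KO and 10.27 in WT round spermatids, against 10.50 and 10.27 in KO and 10.11 and 10.58 in WT pachytene spermatocytes. Its groups overlapped, with a 95% interval from -0.54 to 0.18. Usp13, a dim relative of Usp5, stood at 6.396 in KO and 6.16 in WT round spermatids, against 6.08 and 6.43 in KO and 6.24 and 6.19 in WT pachytene spermatocytes, a difference of 0.04.

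Of the 8 genes of membrane traffic and organelles, Usp50 rose and Usp30, Usp33 and Usp32 fell (50% passed, beside 34.9% of all tested genes). Usp50, a relative of Usp8 that is thought to lack protease activity, stood at 12.81 in KO and 12.89 in WT round spermatids, against 12.17 and 11.74 in KO and 11.78 and 11.77 in WT pachytene spermatocytes. The groups did not overlap, and it rose by 0.98 (SE 0.14, adjusted p = 0.00134). Usp8, which sorts receptors on endosomes and has been tied to acrosome formation, was level: 12.16 in KO and 12.15 in WT round spermatids, against 12.17 and 12.13 in KO and 12.19 and 12.14 in WT pachytene spermatocytes. Its difference was -0.0025 with a 95% interval from -0.24 to 0.23.

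Usp30, which sits on the outer mitochondrial membrane and opposes Parkin, stood at 10.37 in KO and 10.17 in WT round spermatids, against 11.16 and 11.33 in KO and 11.10 and 11.02 in WT pachytene spermatocytes. It fell by 0.88 (SE 0.11, adjusted p = 5.89e-04), with no overlap between the groups. Usp33, a deubiquitinase of the endoplasmic reticulum and centrosome, fell by 0.74 (SE 0.15, adjusted p = 0.00541): 8.23 in KO and 8.34 in WT round spermatids, against 9.10 and 8.70 in KO and 9.03 and 9.28 in WT pachytene spermatocytes. Usp32, a membrane-anchored protease, fell by 0.43 (SE 0.11, adjusted p = 0.0199): 11.69 on both round spermatid arrays, against 12.14 and 12.18 in KO and 12.21 and 11.96 in WT pachytene spermatocytes. Usp33 no longer passed without the WT round spermatid array (adjusted p = 0.106), nor Usp32 without WT pachytene array 1 or either round spermatid array, or with the replicate number as a block (highest adjusted p = 0.224). Usp20, a relative of Usp33, stood at 10.65 in KO and 10.58 in WT round spermatids, against 10.40 and 10.68 in KO and 10.72 and 10.32 in WT pachytene spermatocytes and overlapped (difference 0.09). Usp19 and Usp6nl were at -0.21 and -0.25 and did not pass.

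Among the 16 remaining genes, of signalling and other substrates, Usp9x, Usp25 and Usp38 rose and Usp40 and Usp24 fell (31.2% passed, beside 34.9% of all tested genes). Usp40 stood at 7.45 in KO and 7.51 in WT round spermatids, against 8.53 and 8.50 in KO and 8.49 and 8.73 in WT pachytene spermatocytes. It fell by 1.08 (SE 0.11, adjusted p = 3.35e-04), and its arrays agreed closely within each cell type. Usp38 stood at 9.50 in KO and 9.90 in WT round spermatids, against 9.25 and 8.78 in KO and 8.94 and 8.79 in WT pachytene spermatocytes, a rise of 0.76 (SE 0.18, adjusted p = 0.0116). Usp24 stood at 9.75 in KO and 9.81 in WT round spermatids, against 10.64 and 10.62 in KO and 10.55 and 10.11 in WT pachytene spermatocytes, a fall of 0.70 (SE 0.15, adjusted p = 0.00852). Usp38 did not pass without the WT round spermatid array (adjusted p = 0.252), nor Usp24 without the KO round spermatid array (adjusted p = 0.169).

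Usp2, which helps set the circadian clock and is needed for normal male fertility in mice, stood at 12.96 in KO and 12.97 in WT round spermatids, against 12.89 and 12.78 in KO and 12.90 and 12.89 in WT pachytene spermatocytes. The arrays did not overlap, but the difference of 0.10 (95% interval -0.14 to 0.34) did not pass. Usp15, which acts in TGF-beta signalling, stood at 12.16 in KO and 12.25 in WT round spermatids, against 12.001 and 11.81 in KO and 11.82 and 11.83 in WT pachytene spermatocytes. Its difference of 0.34 (SE 0.11) lay at the threshold (adjusted p = 0.0514) and passed under some of the alternatives, among them without KO pachytene array 1. Usp4, Usp18, Usp31, Usp34, Usp35, Usp42, Usp43, Usp53 and Usp54 had differences between -0.27 and 0.14 and did not pass. Usp4 stood at 11.84 in KO and 11.90 in WT round spermatids, against 11.80 and 11.88 in KO and 11.88 and 11.62 in WT pachytene spermatocytes. Usp42, known for its expression in testis, stood at 12.04 in KO and 12.05 in WT round spermatids, against 12.21 and 12.08 in KO and 12.24 and 12.17 in WT pachytene spermatocytes. Usp35 was dim at 6.96 in KO and 6.90 in WT round spermatids, against 6.83 and 7.08 in KO and 6.97 and 6.93 in WT pachytene spermatocytes. Usp18, which removes the ubiquitin-like protein ISG15, stood at 7.07 in KO and 6.75 in WT round spermatids, against 6.96 and 7.39 in KO and 7.02 and 6.95 in WT pachytene spermatocytes. The 95% intervals of all 4 differences included 0. Usp43 stood at 7.88 in KO and 7.53 in WT round spermatids, against 7.56 and 8.28 in KO and 7.96 and 7.95 in WT pachytene spermatocytes, with the KO arrays at both ends of its pachytene range. Usp31 stood at 8.95 in KO and 9.03 in WT round spermatids, against 9.16 and 9.03 in KO and 9.38 and 9.05 in WT pachytene spermatocytes. For Usp31, a second cluster that was not used differed by -0.90. The 3 Usp17-like genes, whose sequences are so alike that probes may not tell them apart, had differences between -0.15 and 0.07.

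Of the 31 genes that did not pass, 29 had a 95% interval that lay inside 1.5-fold in either direction, so a larger change is outside their intervals. Without regard to the test, 27 of the 52 genes (51.9%) had round spermatid arrays that did not overlap the pachytene arrays, beside 50.5% of all tested genes. Of these 15 lay above and 12 below, beside 24.1% and 26.4%. The 12 genes that passed under all 14 alternatives were Usp10, Usp11, Usp12, Usp25, Usp26, Usp30, Usp40, Usp44, Usp5, Usp50, Usp51 and Usp9x.

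Usp genes with closely related sequences were then set side by side. Usp9x rose by 1.55 while Usp24 fell by 0.70, and Usp12 rose by 1.26 while Usp46 fell by 0.46. Usp26 and Usp37 both rose, by 1.28 and 0.58, and their relative Usp29 was at -0.13 (95% interval -0.44 to 0.19). In the set of Usp11, Usp15 and Usp4, only Usp11 passed, at 1.097, with Usp15 at 0.34 (interval 0.08 to 0.60) and Usp4 at 0.07 (interval -0.21 to 0.34).

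Usp51 rose by 1.42 beside 0.10 for Usp22 and -0.09 for Usp27x. Usp25 was at 1.23 beside -0.19 for Usp28 (interval -0.54 to 0.16), Usp38 at 0.76 beside -0.02 for Usp35 (interval -0.29 to 0.24), and Usp50 at 0.98 beside -0.0025 for Usp8. On the falling side, Usp5 was at -1.03 beside 0.04 for Usp13 (interval -0.26 to 0.35), Usp33 at -0.74 beside 0.09 for Usp20 (interval -0.25 to 0.43), and Usp21 at -0.71 beside 0.10 for Usp2. For Usp5, the relative Usp13 was dim on all arrays. Usp16 was at 0.42 beside 0.03 for Usp45. No gene passed in the sets of Usp31 and Usp43, of Usp36 and Usp42, and of Usp53 and Usp54. The differences between relatives were not tested in themselves.

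**Figure D3:**
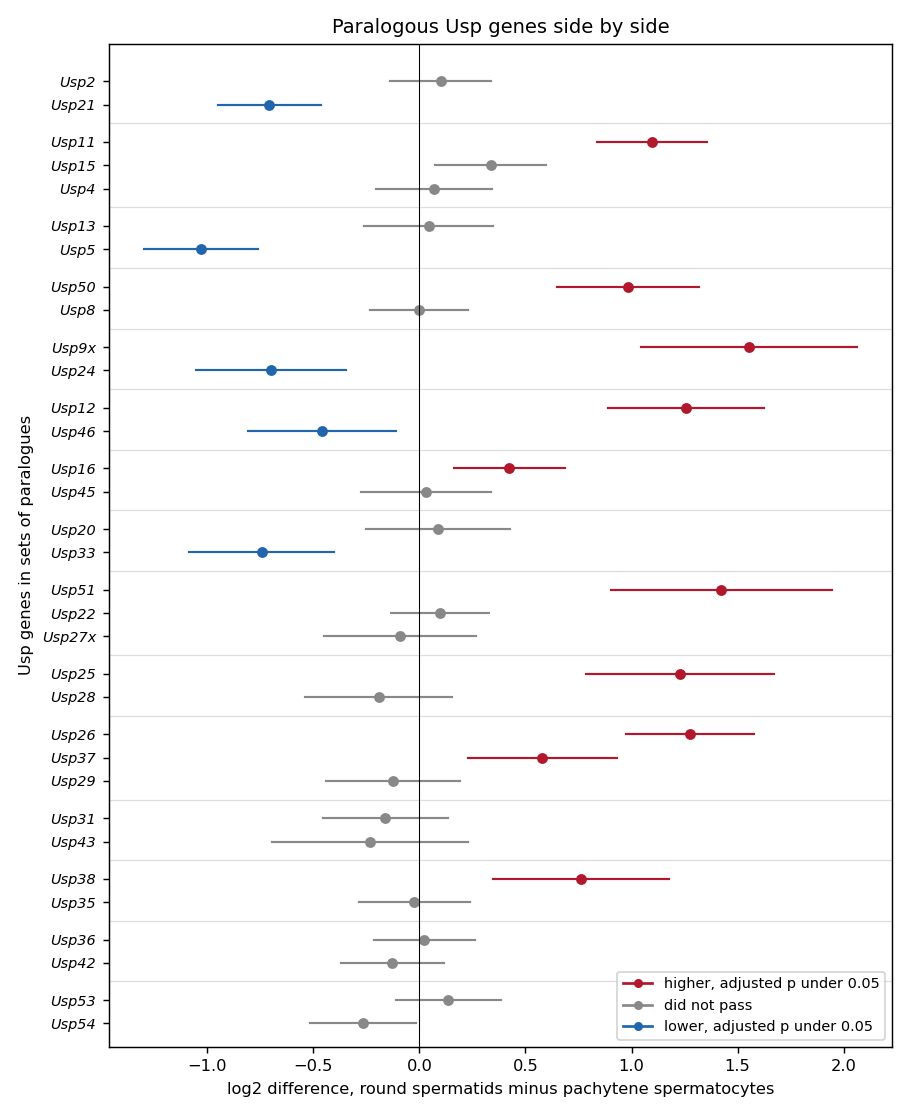
Log2 difference between round spermatids and pachytene spermatocytes, with 95% confidence intervals, for Usp genes grouped with their closest relatives (2 against 4 arrays); red genes passed as higher, blue as lower and grey did not pass. Usp9x (1.55) and Usp24 (-0.70), and Usp12 (1.26) and Usp46 (-0.46), lie on opposite sides of 0.

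A list of other deubiquitinase genes and related genes, Cyld and Uspl1 among them, lay outside the symbol rule. Of 36 tested, 12 rose and 10 fell, or 61.1% beside 34.9% of all tested genes, with a median difference of -0.05 beside -0.06 over all tested genes. The largest differences were -2.51 for Zup1, which cuts chains linked through lysine 63, -1.95 for the endosomal Stambp, 1.501 for X-linked Otud5 and -1.46 for Mindy2 (adjusted p = 1.32e-04, 1.22e-04, 1.45e-04 and 0.0106). Psmd14, the deubiquitinase of the proteasome lid, fell by 1.34 (adjusted p = 1.95e-04).

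Within each genotype the same comparison rests on 1 round spermatid array, assumed to vary like the pachytene pairs. In KO cells 8 Usp genes rose and 6 fell, beside 15.5% of all tested genes that passed, 8.36% as higher and 7.18% as lower. In WT cells 9 rose and 6 fell, beside 20%, 11.5% and 8.45%. All 21 genes that passed over both genotypes had the same sign in KO as in WT. In each of them both round spermatid arrays lay to the same side of all 4 pachytene arrays. The signs could therefore not have differed, and their agreement is not a separate result. The counts within each genotype rest on few arrays. Without WT pachytene array 1 or 2 the KO and WT counts fell, and so did those over all tested genes. With each array centred on its median, the KO count fell as well, as did that over all tested genes. A term for genotype by cell type passed for 0 Usp genes in limma, with 0 at an unadjusted p below 0.05 (0% of all tested genes passed). Its most negative values among Usp genes were -0.59 for Usp46 (SE 0.26) and -0.55 for Usp38 (SE 0.34), and its most positive was 0.38 for Usp43 (SE 0.41).

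In pachytene spermatocytes 0 Usp genes differed between KO and WT past the threshold in limma, with 2 arrays each. At an unadjusted p below 0.05 there were 2 of 52, beside 430 of 17925 tested genes. A trended and robust prior called 0 Usp genes. At the adjusted threshold the background was 0% of all tested genes. For all 52 genes the 95% interval of the difference lay inside 2-fold, and for 34 inside 1.5-fold. The median difference was 0.06, against 0.03 over all tested genes. The arrays of the 2 genotypes did not overlap for 15 of 52 genes, 11 higher and 4 lower in KO, beside 25% of all tested genes, 14.9% higher and 10.2% lower.

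The 4 largest differences in each direction were small. Usp46 stood at 9.84 and 9.94 in KO against 9.53 and 9.36 in WT pachytene spermatocytes (difference 0.45, SE 0.15), Usp26 at 0.39, Usp9x at 0.33 and Usp5 at 0.32. Usp17ld stood at 6.98 and 6.93 in KO against 7.28 and 7.61 in WT (difference -0.49, SE 0.17), Usp51 at -0.26, Usp33 at -0.25 and Usp53 at -0.24. All had an adjusted p of 1 in limma. Several of these hang on single arrays. Leaving out 1 array gave -0.022 (without KO array 1) to 0.68 (without KO array 2) for Usp9x, -0.72 (without KO array 1) to 0.19 (without KO array 2) for Usp51 and -0.46 (without KO array 1) to -0.052 (without KO array 2) for Usp33. The same ranges were 0.25 to 0.52 for Usp26, 0.22 to 0.42 for Usp5, 0.37 to 0.53 for Usp46, -0.32 to -0.16 for Usp53 and -0.65 to -0.33 for Usp17ld. For Usp17ld, the cluster it shares with Usp17le, Usp17lc and Usp17la went the other way (difference 0.27).

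Over both cell types, with 3 KO against 3 WT arrays, limma again called 0 Usp genes, beside 0% of all tested genes. The unadjusted p was below 0.05 for 5 of 52 Usp genes, beside 979 of 17925 tested genes. A trended and robust prior called 0 Usp genes. The smallest adjusted p was 0.472, for Usp17ld at -0.54 (SE 0.12), one of the near-identical genes named above. Its values on the KO arrays lay under the lower quartile of the tested genes. The cluster that Usp17ld shares with Usp17le, Usp17lc and Usp17la was instead higher in KO, by 0.27 in pachytene spermatocytes and 0.13 in round spermatids. Usp26 followed Usp17ld, with the opposite sign, at 0.39 (SE 0.12, adjusted p = 0.833). Usp5 was at 0.28, Usp9x and Usp46 at 0.25, Usp51 at -0.31, Usp53 at -0.27 and Usp54 at -0.26. With 1 array left out, Usp51 lay between -0.59 (without KO pachytene array 1) and -0.068 (without KO pachytene array 2), Usp9x between 0.033 and 0.43 (without the same arrays), and Usp46 between 0.15 (without WT pachytene array 2) and 0.45 (without either round spermatid array).

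Within both cell types the KO arrays lay on the same side of the WT arrays for 11 genes, Usp21, Usp22, Usp26, Usp30, Usp36, Usp39 and Usp5 above and Usp17ld, Usp2, Usp53 and Usp54 below, beside 18% of all tested genes, 10.9% above and 7.09% below. The tight junction gene Usp53 and its relative Usp54 were both among the lower ones. Usp53 stood at 9.52 in KO against 9.84 in WT round spermatids and at 9.41 and 9.44 in KO against 9.75 and 9.59 in WT pachytene spermatocytes, with no overlap. Usp54 stood at 9.40 in KO against 9.70 in WT round spermatids and at 9.79 and 9.60 in KO against 9.94 on both WT pachytene arrays. Neither passed (adjusted p = 0.892 for each).

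**Figure D4:**
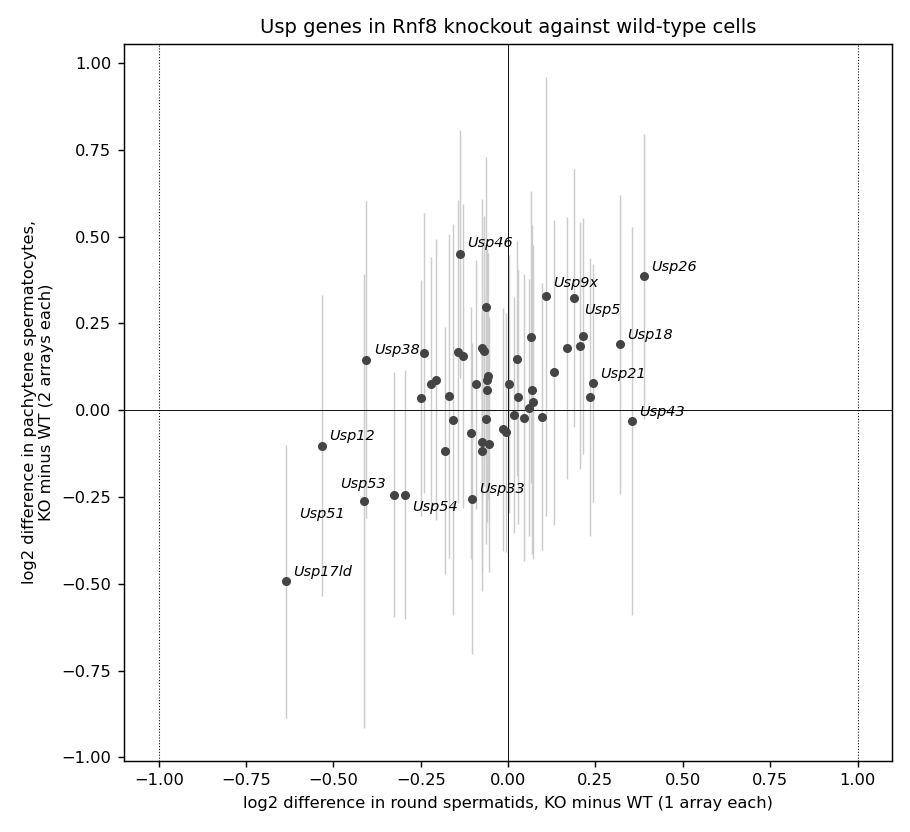
Log2 difference between KO and WT for each of the 52 Usp genes, in round spermatids on the horizontal axis (1 array each, no test) and in pachytene spermatocytes on the vertical axis (2 arrays each, bars are 95% confidence intervals); dotted lines mark a 2-fold difference. All points lie inside 2-fold, with Usp17ld (-0.64 and -0.49) and Usp26 (0.39 and 0.39) at opposite corners.

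In round spermatids, KO and WT are 1 array each, so the difference has no replicate check. No Usp gene differed by 2-fold, beside 0.385% of all tested genes, 0.0335% higher and 0.351% lower. At 1.5-fold there was 1, Usp17ld, beside 1.91% of all tested genes, 0.391% higher and 1.52% lower. It stood at 6.95 in KO against 7.59 in WT (difference -0.64), while its shared cluster, named above, was at 0.13. The next were Usp12 at -0.53, Usp51 at -0.41 and Usp38 at -0.41, all genes that rose in round spermatids. On the other side, Usp26 was at 0.39, Usp43 at 0.35, Usp18 at 0.32 and Usp21 at 0.24. Of the 12 Usp genes that rose in round spermatids, 10 were lower on the KO than on the WT round spermatid array, with a median of -0.18, beside 72.3% and a median of -0.11 over all genes that rose.

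The 2 KO pachytene arrays differed most for the Usp genes that rose in round spermatids. Array 1 was above array 2 for 11 of these 12 genes, with a median difference of 0.39, beside 73.4% and 0.21 over all genes that rose. In the WT pair array 1 was the higher for 7 of the 12, beside 50.5% of all genes that rose. The round spermatid markers moved with them, with a mean deviation from their 6-array mean of -0.04 on KO array 1 and -0.62 on KO array 2, against -0.45 and -0.54 on the WT arrays. The part of spermatid RNA in the KO pachytene values of these genes was not tested. The 9 Usp genes that fell had mean deviations of 0.39 and 0.32 on the KO and 0.24 and 0.20 on the WT pachytene arrays, and of -0.58 on each round spermatid array.

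**Figure D5:**
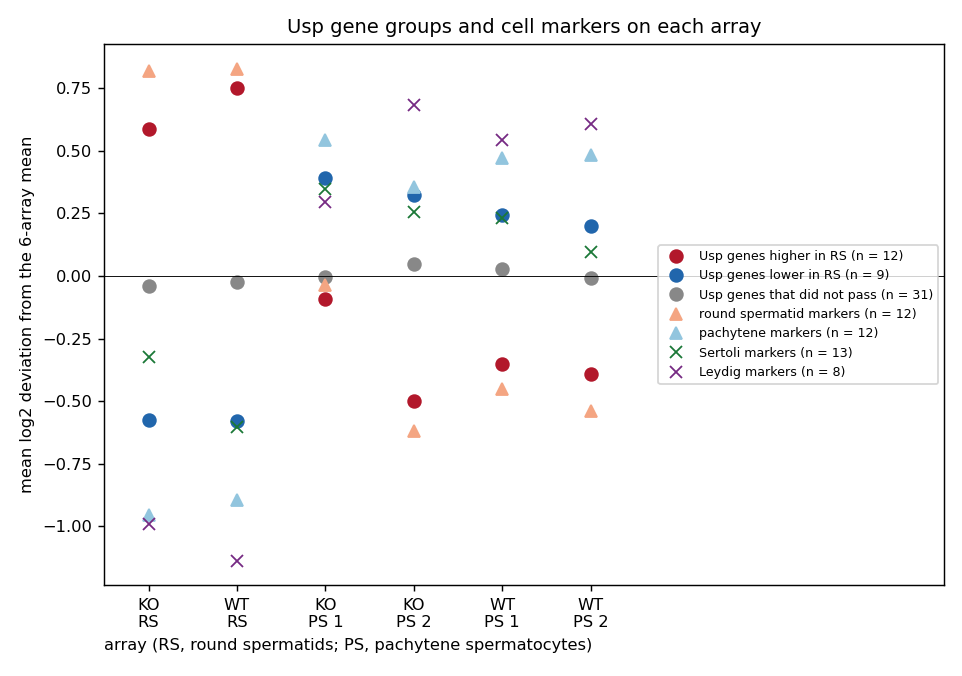
Mean log2 deviation from the 6-array mean, by array, of the Usp genes that rose (12), fell (9) or did not pass (31) and of 4 lists of cell markers (RS, round spermatids; PS, pachytene spermatocytes). The Usp genes that rose lie at 0.59 and 0.75 on the round spermatid arrays and between -0.50 and -0.09 on the pachytene arrays, highest of these on KO array 1, where the round spermatid markers are highest too.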

How the data were processed

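The authors deposited linear intensity for each array. The submitters' processing notes name Affymetrix Expression Console 1.1 and RMA, without settings or a genome build. Median intensity per array lay between 197 and 218, and the number of arrays limits the precision.

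Log2 was taken, and 21789 of 35556 clusters with 1 gene symbol in the platform annotation gave 19938 genes, with chromosomes from RefSeq (GRCm38.p6, 21698 clusters matched by gene identifier). The cluster of highest mean was used where a gene had several, as for 3 Usp genes. Groups came from the sample titles. limma 3.58.1 in R 4.3.3 was fitted to 17925 genes: genotype plus cell type (3 residual degrees of freedom) and a fit of 4 groups (2 residual degrees of freedom), with Benjamini-Hochberg adjustment over all genes, and tested on simulated data. Gene lists are described by counts and medians.

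Array values are given for the 12 largest rises and 12 largest falls that passed, as far as there were so many, the histone, DNA repair, X-linked and most paralogue members, and the largest genotype differences, of which 4 in each direction are named. Other members are given by difference or range. The members, lists and tests were chosen with earlier results of these data known. Deviations of same-numbered pachytene arrays were weakly and negatively correlated across genes (correlation -0.23), which cannot settle whether the numbers mark pairs. The labels state no pairing, so the numbers were used only as a block among the alternatives. Usp49 and Usp17le had no single-gene cluster and were not tested. Alternatives changed the filter, normalization, offset, prior, clusters, members, arrays and the replicate block.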

Additional observations from a re-analysis of the deposited data

How the results depend on the processing

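Over both genotypes the main count was 21 and lay between 18 and 23 with other filters, normalizations, offset, prior, clusters, the replicate block or without Usp6nl, and between 14 and 24 with 1 array left out. In WT it was 15 and lay between 4 and 19 with 1 array left out. In KO it was 14, between 7 and 16 with 1 array left out, and 7 with each array centred on its median. The causes were not tested. The count of Usp genes 2-fold apart in round spermatids was 0, and 1 at 1.5-fold. For KO against WT in pachytene spermatocytes, over both cell types and in the interaction, 0 Usp genes passed under every alternative run. With the replicate number as a block, 18 Usp genes passed between cell types and 0 in pachytene spermatocytes, where the numbers do not mark a pairing that the labels state. With the numbers crossed, chosen after the data were seen, 0 Usp genes passed for KO against WT in pachytene spermatocytes, beside 88 tested genes.

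No Usp gene that passed between cell types changed sign. Signs turned for 10 genes with differences within 0.1 of 0. With 1 array left out, the range was -0.055 to 0.14 for Usp13, -0.20 to 0.034 for Usp17lc, -0.010 to 0.14 for Usp17ld, -0.21 to 0.022 for Usp27x, -0.079 to 0.025 for Usp35, -0.038 to 0.086 for Usp36, -0.0054 to 0.14 for Usp4, -0.036 to 0.091 for Usp45, -0.054 to 0.014 for Usp48 and -0.018 to 0.013 for Usp8. Under the replicate block Usp13 was at -0.033 and Usp8 at 0.021, under a second quantile normalization Usp35 was at 0.034 and Usp48 at 0.019, and with arrays centred on the median Usp35 was at 0.016, Usp48 at 0.021 and Usp8 at 0.037. For KO against WT in pachytene spermatocytes the range was -0.72 to 0.19 for Usp51 and -0.022 to 0.68 for Usp9x. Usp15, Usp18, Usp31, Usp43 and Usp7 did not pass but did so under at least 1 alternative. The round spermatid comparison of genotypes has 1 array each. No measure of signal over background was used here, so changes of dim genes may be understated.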

Other observations

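Some clusters of Usp genes lie outside the comparisons, and their log2 intensity is given as values only. The cluster shared by Usp49 and Med20 stood at 10.30 on the KO and 10.49 on the WT round spermatid array, against 10.28 and 9.71 on the KO and 10.02 and 9.82 on the WT pachytene arrays. The cluster shared by Usp17le, Usp17ld, Usp17lc and Usp17la stood at 6.97 and 6.84 on the KO and WT round spermatid arrays, against 7.003 and 7.23 on the KO and 6.73 and 6.97 on the WT pachytene arrays. Usp46os2, an antisense transcript listed beside Usp46, stood at 10.30 in KO and 10.14 in WT round spermatids, against 10.15 and 10.32 in KO and 10.27 and 10.47 in WT pachytene spermatocytes. Among second clusters that were not used, the differences between round spermatids and pachytene spermatocytes were -0.47 for Usp24 (-0.70 for the cluster used), -0.15 for Usp54 (-0.27 for the cluster used) and -0.90 for Usp31 (-0.16 for the cluster used). The unused Usp31 cluster stood at 7.25 in KO and 7.09 in WT round spermatids, against 7.61 and 7.87 in KO and 8.03 and 8.75 in WT pachytene spermatocytes, and with the mean of both clusters Usp31 was at -0.53 (limma adjusted p = 0.0158).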
